A study of Homo sapiens with 17 samples.

Results

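Glycolysis and hypoxia response genes are described here in L363, a human multiple myeloma cell line, after treatment with an inhibitor of histone deacetylases, an inhibitor of mTOR, or both. The set holds 39 genes grouped by function: glucose uptake and lactate export, the glycolytic enzymes, the enzymes at the branch to lactate, oxygen sensing, and targets of hypoxia-inducible factor (HIF). Each gene was read from the probe set annotated to it alone that had the highest mean over all 17 arrays. That rule gave values for 36 of the 39 genes, of 19775 genes measured in all. SLC16A1, SLC16A3 and CA9 had no probe set annotated to them alone and are not analysed here.

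Glycolysis breaks glucose down to pyruvate, which is either reduced to lactate in the cytosol or oxidised in mitochondria. HIF is a transcription factor whose alpha subunit is hydroxylated by the EGLN enzymes and destroyed while oxygen is present. When oxygen falls, the stable factor raises genes for glucose uptake, glycolysis, blood vessel growth and collagen hydroxylation. Signalling through mTOR is known to promote expression of HIF1A and of glycolytic genes in many cell types, and proliferating tumour cells such as myeloma commonly convert much of their glucose to lactate even with oxygen present.

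Total RNA was measured at 48 hours on 3 arrays each of untreated control cells, cells with 0.5 uM MS275 (an inhibitor of class I histone deacetylases), cells with 1 nM rapamycin and cells with 10 nM rapamycin (an inhibitor of the kinase mTOR). Rapamycin at 1 nM with 0.5 uM MS275 has 3 arrays and is called the 1 nM combination. Rapamycin at 10 nM with 0.5 uM MS275 has 2 arrays, since the submitters disqualified 1 array, and is called the 10 nM combination. The labels name a single cell line, and nothing in them ties a replicate to a culture of its own, so p-values measure the spread between arrays, which may be technical only. The series asks how inhibiting mTOR and histone deacetylases together acts on this line.

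Values are log2 signals as deposited by the authors, and a change is a difference of group means of these, with its standard error (SE). A gene is called where limma's p, adjusted over all 19775 genes, is under 0.05. Median signals ran from 5.09 to 5.36 per array. The first replicates of control and of the 1 nM combination, here called the narrow arrays, spread less over the probe sets than the other 15 arrays (SD of 2.14 and 2.15 against 2.27 to 2.37). Of 10 plasma cell markers, 9 had a mean of at least 8, CD27 being the exception with 4.68. Markers of T cells had means of 3.89 to 5.14, of myeloid cells 2.98 to 5.68, of B cells 2.59 to 7.09, of fibroblasts 2.86 to 6.92, of epithelial cells 2.72 to 6.68 and of red cells 5.18 to 6.40. In bulk RNA, fewer cells of a type and less RNA per cell cannot be told apart.

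Genes of glucose uptake and glycolysis were lower when both drugs were given, and 1 change of a drug given alone, that of SLC2A1 with MS275, passed the test. In the 1 nM combination, 10 of the 36 genes fell and none rose, where 1.58% of all genes fell. These were the glucose transporter SLC2A1, the glycolytic enzymes HK2, GPI, PFKP, ALDOA, ALDOC, TPI1 and PGAM1, the lactate dehydrogenase subunit LDHA, and BHLHE40, a transcriptional repressor and HIF target. In the 10 nM combination the same 10 genes fell together with GAPDH and ENO1, 12 of 36 against 2.24% of all genes. The median change over the 36 genes was -0.79 at 1 nM and -0.73 at 10 nM, where the median over all genes was 0.02 and -0.08.

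The falls in the combinations rest on a spread estimated from all 6 groups. Fitted on the arrays of the compared groups alone, no member passed in either combination, and of all genes 0 passed as well, although 14 members at 1 nM and 15 at 10 nM had an unadjusted p under 0.05. The share of all genes with such a p was not counted in those fits. With the full fit, 18 and 16 members had an unadjusted p under 0.05, where 12.6% and 14.2% of all genes did. At 1 nM, the count of falls was 6 without control replicate 3 and 6 without replicate 2 of the combination. At 10 nM, 3 remained without replicate 1 of the combination, 5 without its replicate 2, and 7 without control replicate 3. Without the 2 narrow arrays 7 and 10 members fell.

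**Figure D1:**
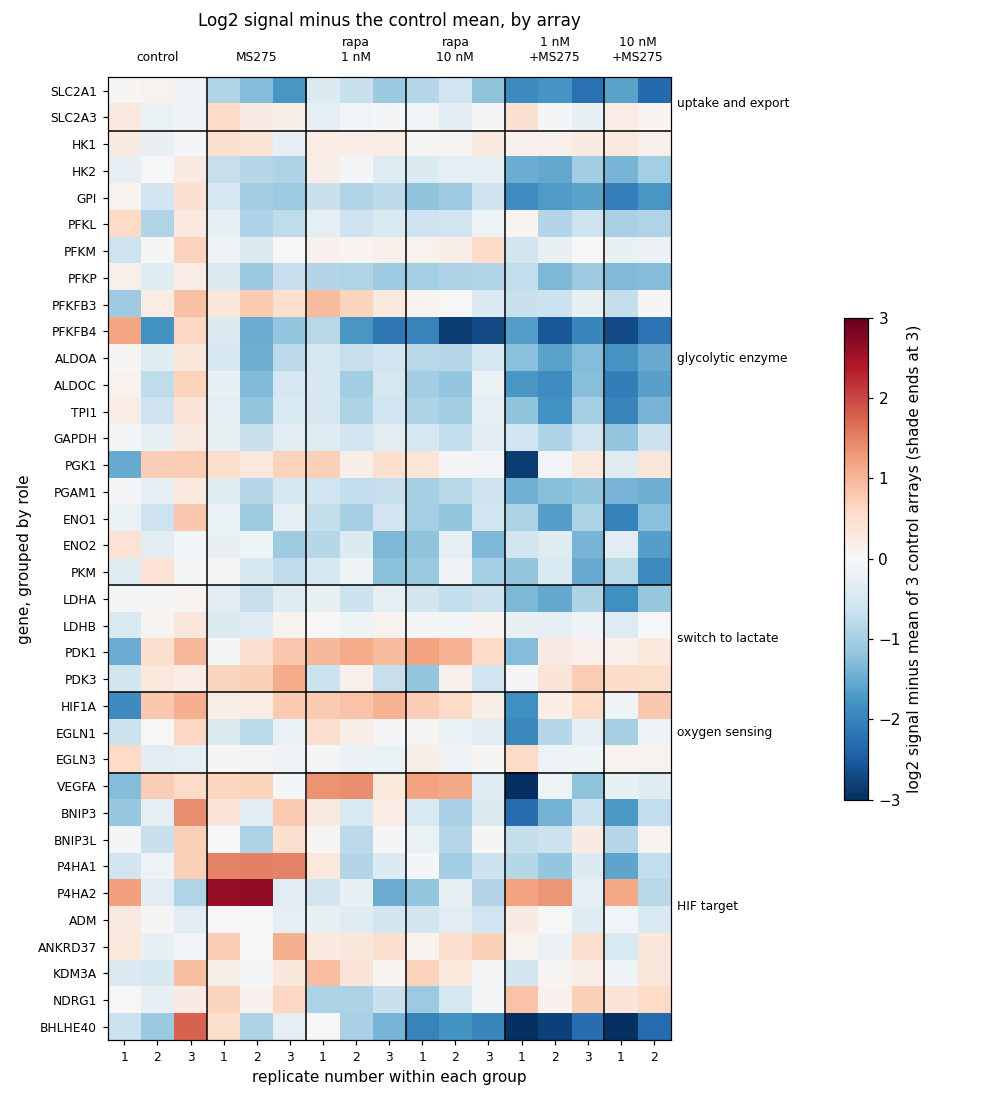
Heat map of the 36 genes (rows, grouped by role) on the 17 arrays (columns, grouped by treatment and numbered by replicate). The shade is the log2 signal minus the mean of the 3 control arrays, from blue (lower) to red (higher). SLC2A1, most glycolytic enzymes, LDHA and BHLHE40 are blue in the 5 combination arrays, whereas LDHB, SLC2A3 and HK1 stay near white throughout. In the narrow arrays, the first columns of control and of the 1 nM combination, HIF1A, PGK1, PDK1 and VEGFA are blue.

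Read array by array, 14 of 36 members lay below every control array in all 3 arrays of the 1 nM combination, where 5.61% of all genes did. With 10 nM, 16 did, where the background was 13% with 2 arrays. Of the single treatments, 7 members lay below all controls with MS275 (5.34% of all genes), 9 with 1 nM rapamycin (8.03%) and 10 with 10 nM rapamycin (4.93%). Above all controls lay 2 members with MS275 (5.7% of all genes) and 2 in the 10 nM combination (8.46%), PDK3 being in both. In 5 members, HK2, GPI, PGAM1, LDHA and BHLHE40, all 5 combination arrays lay below all 12 other arrays, and 79 of all genes (0.399%) shared that order.

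Promoter sequences of 5 members are shown as examples. Of these, 4 are among the 10 genes that fell in both combinations. The fifth, LDHB, is the partner of LDHA and was called in neither. Each runs from 250 bases before to 50 bases after an annotated transcription start and was taken from RefSeq on build GRCh38.p14, written 5′ to 3′ on the gene's strand. Capitals mark ACGTG and GCGTG, which hold the core of the HIF response element, and CACGTG, the E-box bound by MYC and by BHLHE40, each on either strand. A CACGTG holds an ACGTG on each strand and so is counted as 2 ACGTG. LDHA lies on chr11:18394313-18394612, plus strand, with 5 ACGTG, 1 GCGTG and 2 CACGTG. ALDOC lies on chr17:28576846-28577145, minus strand, with 3 ACGTG, 2 GCGTG and 1 CACGTG. BHLHE40 lies on chr3:4979187-4979486, plus strand, with 4 ACGTG, 0 GCGTG and 1 CACGTG. PGAM1 lies on chr10:97427568-97427867, plus strand, and LDHB on chr12:21657793-21658092, minus strand. PGAM1 holds none of these letters and LDHB 1 GCGTG.
LDHA: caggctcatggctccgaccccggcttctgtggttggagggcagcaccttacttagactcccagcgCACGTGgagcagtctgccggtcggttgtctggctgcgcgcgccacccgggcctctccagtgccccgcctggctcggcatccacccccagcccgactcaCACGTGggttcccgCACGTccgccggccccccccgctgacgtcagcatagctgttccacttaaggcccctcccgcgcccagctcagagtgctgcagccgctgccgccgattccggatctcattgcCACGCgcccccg
ALDOC: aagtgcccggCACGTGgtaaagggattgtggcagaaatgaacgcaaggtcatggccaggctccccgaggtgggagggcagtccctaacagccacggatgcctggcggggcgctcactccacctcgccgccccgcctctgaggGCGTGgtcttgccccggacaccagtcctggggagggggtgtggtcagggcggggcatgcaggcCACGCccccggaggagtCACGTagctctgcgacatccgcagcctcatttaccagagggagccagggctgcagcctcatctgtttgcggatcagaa
BHLHE40: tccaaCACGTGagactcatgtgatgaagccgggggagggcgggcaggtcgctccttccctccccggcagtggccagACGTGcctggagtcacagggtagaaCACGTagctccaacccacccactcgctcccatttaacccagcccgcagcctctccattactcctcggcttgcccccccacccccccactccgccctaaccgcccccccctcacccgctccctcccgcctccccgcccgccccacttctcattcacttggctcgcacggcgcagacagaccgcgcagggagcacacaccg
PGAM1: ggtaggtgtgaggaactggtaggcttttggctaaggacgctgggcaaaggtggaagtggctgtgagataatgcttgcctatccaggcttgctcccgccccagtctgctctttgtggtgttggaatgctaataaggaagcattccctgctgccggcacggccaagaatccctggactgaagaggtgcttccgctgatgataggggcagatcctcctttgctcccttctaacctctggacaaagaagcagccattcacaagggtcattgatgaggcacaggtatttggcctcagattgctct
LDHB: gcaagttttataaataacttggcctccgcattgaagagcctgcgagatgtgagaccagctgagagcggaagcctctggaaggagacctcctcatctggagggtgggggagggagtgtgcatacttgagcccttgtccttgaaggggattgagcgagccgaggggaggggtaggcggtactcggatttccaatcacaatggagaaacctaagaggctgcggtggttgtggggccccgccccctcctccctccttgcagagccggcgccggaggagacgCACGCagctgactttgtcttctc

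The table of promoters held 56 windows for 32 of the 36 measured members. ACGTG was in 41.1% of these windows, where 21.4% of all 35116 windows of the same length held it. The share was 61.1% (11 of 18 windows) for the 10 genes that fell in both combinations and 31.6% of the 38 windows of the other 22 members. GCGTG was in 44.4% and 39.5% of these windows and in 36.5% of all windows, and CACGTG in 27.8% and 10.5% against 7.26%. Of the 10 genes, PGAM1 and SLC2A1 had no ACGTG in their windows. CACGTG was in a window of LDHA, ALDOC, BHLHE40, HK2 and ALDOA, and in none of SLC2A1, GPI, PFKP, TPI1 and PGAM1. LDHA has 2 windows, and only the 1 shown holds ACGTG or CACGTG. Windows of a gene can overlap, no test was made, and a match of letters is a description of the sequence and not a bound site.

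SLC2A1 encodes GLUT1, the main basal glucose transporter. SLC2A1 measured 8.004, 8.07 and 7.81 in the control arrays and 7.06, 6.67 and 6.22 with MS275. With rapamycin, SLC2A1 measured 7.55, 7.30 and 6.84 at 1 nM and 7.11, 7.38 and 6.76 at 10 nM. With both drugs, SLC2A1 measured 6.07, 6.19 and 5.72 at 1 nM and 6.37 and 5.63 at 10 nM. Every treated array lay below the 3 control arrays, and the combination arrays overlapped only the lowest MS275 array. SLC2A1 was the 1 member that fell with MS275 alone, by 1.31 ± 0.27 on the log2 scale (2.49-fold, adjusted p = 0.0236), where 0.455% of all genes fell. Leaving out replicate 2 or 3 of either group ended that call, with changes of -1.39 to -1.10 and adjusted p of 0.0531 to 0.127. It fell 3.91-fold with both drugs at 1 nM (-1.97 ± 0.27, adjusted p = 0.00114) and 3.9-fold in the 10 nM combination (-1.96 ± 0.30, adjusted p = 0.00219). The latter was lost without replicate 2 of that group (-1.60, adjusted p = 0.0574). With rapamycin alone its change was -0.73 at 1 nM and -0.88 at 10 nM, with adjusted p of 0.462 and 0.261. Its second probe set is dim, with a mean of 3.39, and averaging both gave -0.71 with MS275 and -1.05 and -1.09 in the combinations, which kept these calls. SLC2A3, which encodes the transporter GLUT3, had a change of 0.055 and 0.14 in the combinations, with 95% intervals of -0.37 to 0.48 and -0.34 to 0.62.

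Of the 17 glycolytic enzymes and their regulators, 7 fell with both drugs at 1 nM, and 9 at 10 nM, where 1.58% and 2.24% of all genes fell. None passed with a single drug, although 5 (MS275), 6 (1 nM rapamycin) and 9 (10 nM rapamycin) had an unadjusted p under 0.05. Of all genes, 10.8%, 8.05% and 6.96% had such a p. The median change of the 17 was -0.57 with MS275, -0.61 and -0.74 with 1 and 10 nM rapamycin, and -1.06 and -1.32 in the combinations. In each combination 16 of the 17 had a negative change, HK1 being the exception. Of all 19775 genes, 9293 had a negative change at 1 nM and 11809 at 10 nM. The enzymes that fell act at steps from the phosphorylation of glucose to the formation of phosphoenolpyruvate.

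HK2 encodes the inducible hexokinase, which phosphorylates glucose in the first step. HK2 measured 8.48, 8.72 and 8.99 in the control arrays and 8.03, 7.88 and 7.82 with MS275. With rapamycin, HK2 measured 8.92, 8.69 and 8.35 at 1 nM and 8.31, 8.44 and 8.45 at 10 nM. With both drugs, HK2 measured 7.24, 7.20 and 7.69 at 1 nM and 7.34 and 7.71 at 10 nM. The combination arrays were the lowest 5 of all arrays, the MS275 arrays lay between them and the control, and 1 nM rapamycin overlapped the control. HK2 fell by 1.36 ± 0.20 at 1 nM with MS275 (2.56-fold, adjusted p = 0.00183) and by 1.20 ± 0.22 in the 10 nM combination (2.3-fold, adjusted p = 0.00764). The 10 nM call was lost without replicate 1 of that group (-1.02, adjusted p = 0.11). With MS275 alone the change of -0.82 ± 0.20 had an adjusted p of 0.0559, and 0.0448 with the replicate number as a block. With 1 nM rapamycin it was -0.08 (adjusted p = 0.9). Both combination calls were lost when its 3 probe sets were averaged, since the other 2, of lower signal (means of 5.64 and 5.16), changed by -0.02 and -0.38 with both drugs at 1 nM. HK1, the constitutive hexokinase, changed by 0.17 (95% interval -0.24 to 0.58) and 0.22 (-0.25 to 0.68).

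GPI interconverts glucose 6-phosphate and fructose 6-phosphate. GPI measured 11.92, 11.25 and 12.28 in the control arrays and 11.32, 10.77 and 10.72 with MS275. With rapamycin, GPI measured 11.14, 10.93 and 11.03 at 1 nM and 10.60, 10.73 and 11.19 at 10 nM. With both drugs, GPI measured 9.96, 10.12 and 10.21 at 1 nM and 9.78 and 10.08 at 10 nM. The 5 combination arrays were the lowest of all arrays, and both rapamycin groups lay below the lowest control array. GPI fell by 1.72 ± 0.25 (3.3-fold, adjusted p = 0.00183) and 1.89 ± 0.28 (3.7-fold, adjusted p = 0.00187) in the 1 and 10 nM combinations, and both calls held with any single array left out. The single drugs gave changes of -0.88, -0.79 and -0.97 for MS275, 1 nM and 10 nM rapamycin, with adjusted p of 0.113, 0.36 and 0.146.

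PFKP encodes the platelet type of phosphofructokinase, which commits sugar to glycolysis. PFKP measured 9.90, 9.39 and 9.96 in the control arrays and 9.35, 8.64 and 9.05 with MS275. With rapamycin, PFKP measured 8.88, 8.85 and 8.67 at 1 nM and 8.73, 8.82 and 8.85 at 10 nM. With both drugs, PFKP measured 9.01, 8.40 and 8.67 at 1 nM and 8.42 and 8.44 at 10 nM. All treated arrays lay below the lowest control array, and the combination arrays lay in or just below the range of the single drugs. PFKP fell by 1.06 ± 0.21 (2.08-fold, adjusted p = 0.013) and 1.32 ± 0.23 (2.5-fold, adjusted p = 0.00633). The call at 1 nM was lost without control replicate 3 or replicate 2 of the combination (-0.95 and -0.91, adjusted p of 0.0633 to 0.0688), and that at 10 nM without either of its 2 arrays (adjusted p of 0.0629 to 0.0695). With 10 nM rapamycin alone its change was -0.95 (adjusted p = 0.0734). Averaged with its second probe set, which has a mean of 4.21, PFKP lost both calls. The other phosphofructokinase subunits were not called, with changes of -0.47 and -0.95 for PFKL and -0.26 and -0.20 for PFKM in the 1 and 10 nM combinations.

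PFKFB3 and PFKFB4 set the level of fructose 2,6-bisphosphate, the activator of phosphofructokinase. PFKFB4 had the lowest group mean with 10 nM rapamycin, 7.06 ± 0.45 (SD, n = 3), against 9.57 ± 1.57 (SD, n = 3) in control. Its control arrays, given here after the values were seen, measured 10.75, 7.79 and 10.19, so replicate 2 lay within the treated range. The change was -2.52 ± 0.60 with 10 nM rapamycin (adjusted p = 0.102) and -2.05 and -2.46 in the combinations (adjusted p of 0.0946 and 0.0633). With the replicate number as a block, it passed in the 1 nM combination (adjusted p = 0.0238). Without control replicate 2 it passed in all 5 treated groups, with changes from -1.91 with MS275 to -3.41 with 10 nM rapamycin. PFKFB3 changed by -0.51 and -0.34 in the combinations and passed in neither.

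ALDOA and ALDOC are aldolases, which split fructose 1,6-bisphosphate. ALDOA measured 13.33, 12.93 and 13.63 in the control arrays and 12.83, 11.84 and 12.52 with MS275. With rapamycin, ALDOA measured 12.77, 12.60 and 12.72 at 1 nM and 12.48, 12.45 and 12.77 at 10 nM. With both drugs, ALDOA measured 12.03, 11.70 and 12.01 at 1 nM and 11.54 and 11.78 at 10 nM. Every treated array lay below the lowest control array, and replicate 2 with MS275 lay within the combination range. ALDOA fell by 1.39 ± 0.24 (2.61-fold, adjusted p = 0.00511) and 1.64 ± 0.27 (3.12-fold, adjusted p = 0.00347), the latter lost without replicate 1 of the 10 nM combination (-1.52, adjusted p = 0.0528). ALDOC measured 9.56, 8.69 and 10.14 in the control arrays and 9.23, 8.15 and 8.96 with MS275. With rapamycin, ALDOC measured 8.99, 8.42 and 8.92 at 1 nM and 8.42, 8.31 and 9.27 at 10 nM. With both drugs, ALDOC measured 7.71, 7.60 and 8.20 at 1 nM and 7.40 and 7.84 at 10 nM. Every combination array lay below the lowest control array, that of replicate 2, and so did replicate 2 of MS275 and of 1 nM rapamycin and replicates 1 and 2 of 10 nM rapamycin, so each single-drug group overlapped the control. ALDOC fell by 1.63 ± 0.38 (3.09-fold, adjusted p = 0.0301) and 1.84 ± 0.42 (3.59-fold, adjusted p = 0.0265). At each dose the call was lost without control replicate 1 or 3 or either of 2 arrays of the combination, replicates 1 and 2 (adjusted p of 0.06 to 0.135 and 0.059 to 0.198), and without the 2 narrow arrays.

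TPI1, triose phosphate isomerase, converts between the products of aldolase. TPI1 measured 12.89, 12.04 and 13.06 in the control arrays and 12.39, 11.51 and 12.21 with MS275. With rapamycin, TPI1 measured 12.19, 11.72 and 12.06 at 1 nM and 11.71, 11.61 and 12.37 at 10 nM. With both drugs, TPI1 measured 11.45, 10.86 and 11.67 at 1 nM and 10.70 and 11.27 at 10 nM. The combination arrays lay below every control array and partly within the range of the single drugs. TPI1 fell by 1.34 ± 0.33 (2.53-fold, adjusted p = 0.0419) and 1.68 ± 0.36 (3.21-fold, adjusted p = 0.0212). The call at 1 nM was lost in 11 of 17 fits that left out 1 array (adjusted p of 0.0519 to 0.165), those without control replicate 1 or 3, MS275 replicate 3, 10 nM rapamycin replicate 1 or 2, or any array of 1 nM rapamycin or of the combination. At 10 nM it was lost without control replicate 1 or 3 or either array of the combination (0.053 to 0.194), and both were lost without the 2 narrow arrays.

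PGAM1, phosphoglycerate mutase, had the smallest standard error of the enzymes that fell. PGAM1 measured 13.06, 12.84 and 13.39 in the control arrays and 12.74, 12.23 and 12.62 with MS275. With rapamycin, PGAM1 measured 12.50, 12.37 and 12.41 at 1 nM and 12.09, 12.27 and 12.48 at 10 nM. With both drugs, PGAM1 measured 11.65, 11.82 and 11.94 at 1 nM and 11.70 and 11.63 at 10 nM. The 5 combination arrays lay below all others, and every treated array lay below the lowest control array. PGAM1 fell by 1.29 ± 0.18 (2.45-fold, adjusted p = 0.00153) and 1.43 ± 0.20 (2.69-fold, adjusted p = 0.00138), and both calls held with any single array left out. MS275 gave -0.57 (adjusted p = 0.176), and rapamycin -0.67 at 1 nM (adjusted p = 0.227) and -0.81 at 10 nM (adjusted p = 0.0766).

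GAPDH and ENO1 fell in the 10 nM combination, by 0.90 ± 0.22 (1.86-fold, adjusted p = 0.0412) and 1.64 ± 0.40 (3.12-fold, adjusted p = 0.0348). At 1 nM they changed by -0.70 (adjusted p = 0.0864) and -1.18 (adjusted p = 0.107), and both passed there with the replicate number as a block (adjusted p of 0.0354 and 0.0259). The ENO1 call was lost without control replicate 1 or 3, replicate 1 of either rapamycin dose or either array of the combination (adjusted p of 0.0503 to 0.304), and with its probe sets averaged. The GAPDH call was lost in 11 of 17 fits that left out 1 array (0.0503 to 0.365), and held only without control replicate 2, MS275 replicate 1 or 2, 10 nM rapamycin replicate 3, or replicate 1 or 2 of the 1 nM combination. ENO2 (-0.77 and -0.98) and PKM (-1.05 and -1.36), which make phosphoenolpyruvate and pyruvate, passed in neither combination.

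**Figure D2:**
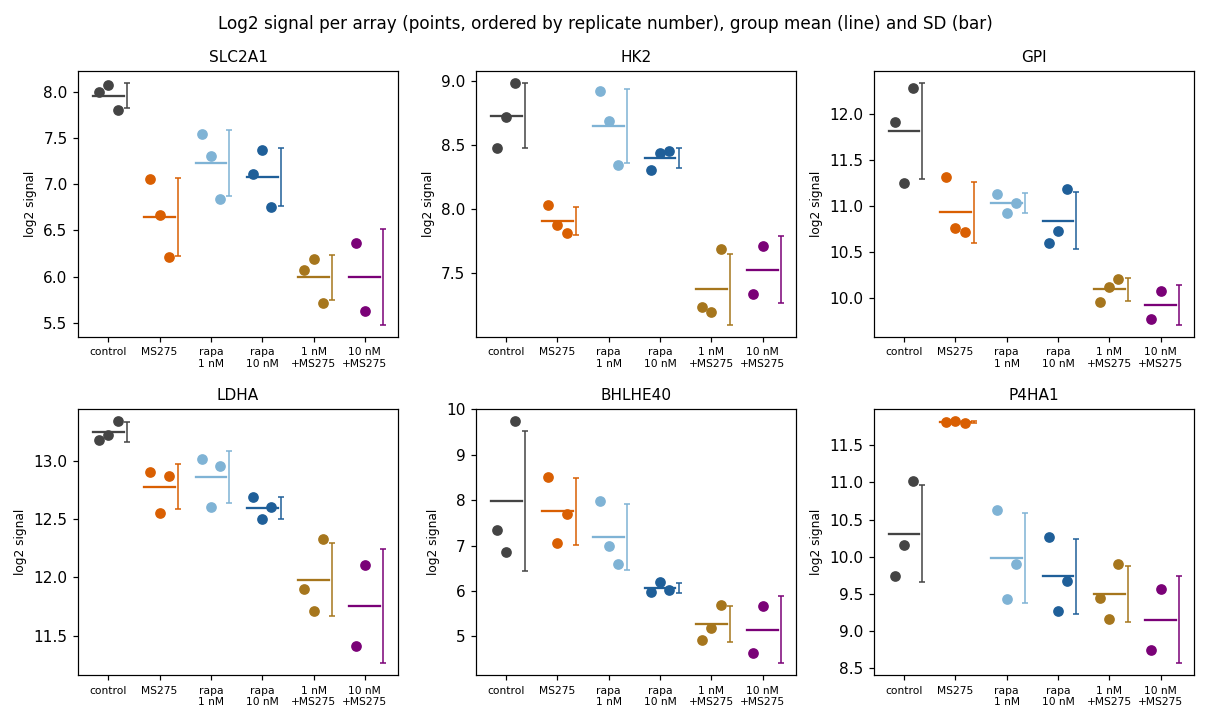
Log2 signal of 6 genes by treatment group. Points are arrays in order of replicate number, lines are group means and bars are SD (n = 3, or 2 for 10 nM with MS275), and each vertical axis has its own range. HK2, GPI, LDHA and BHLHE40 are lowest in the 5 combination arrays, whereas P4HA1 is highest with MS275 alone, where its 3 arrays lie between 11.80 and 11.83.

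LDHA encodes the lactate dehydrogenase subunit that favours lactate formation, and the 1 of its 2 promoter windows shown above holds 2 CACGTG. LDHA measured 13.18, 13.22 and 13.34 in the control arrays and 12.90, 12.56 and 12.87 with MS275. With rapamycin, LDHA measured 13.01, 12.60 and 12.96 at 1 nM and 12.69, 12.50 and 12.60 at 10 nM. With both drugs, LDHA measured 11.90, 11.72 and 12.33 at 1 nM and 11.41 and 12.10 at 10 nM. All treated arrays lay below the 3 control arrays, and the combination arrays lay below all single-drug arrays. LDHA fell by 1.26 ± 0.21 in the 1 nM combination (2.4-fold, adjusted p = 0.00374) and by 1.49 ± 0.23 in the 10 nM combination (2.81-fold, adjusted p = 0.00266). The call at 10 nM was lost without replicate 1 of that group (-1.14, adjusted p = 0.0564). Against 1 nM rapamycin the 1 nM combination had a change of -0.88 with an adjusted p of 0.0581, which was 0.0341 with the replicate number as a block.

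LDHB, the other subunit of the same enzyme, did not pass in any comparison. Its group means lay between 12.64 ± 0.29 (SD, n = 3) with MS275 and 12.88 ± 0.39 (SD, n = 3) in control. Its change was -0.20 with both drugs at 1 nM, and -0.19 at 10 nM, with 95% intervals of -0.63 to 0.24 and -0.68 to 0.30. The intervals for LDHA were -1.71 to -0.82 and -1.98 to -0.99, below those of LDHB at each dose, although the difference between the genes was not tested.

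PDK1 and PDK3 are kinases that inactivate pyruvate dehydrogenase and so keep pyruvate out of mitochondria. PDK3 measured 6.997, 7.85 and 7.77 in the control arrays and 8.20, 8.26 and 8.66 with MS275. With rapamycin, PDK3 measured 6.90, 7.68 and 6.84 at 1 nM and 6.35, 7.69 and 6.95 at 10 nM. With both drugs, PDK3 measured 7.51, 7.92 and 8.29 at 1 nM and 8.10 and 8.06 at 10 nM. The arrays with MS275, alone or at 10 nM, lay above every control array, while replicate 1 of the 1 nM combination lay within the control range. No single comparison called PDK3 (0.83 with MS275, adjusted p = 0.356), but the mean effect of MS275 over the 3 rapamycin levels did, a rise of 0.89 ± 0.21 (adjusted p = 0.0138). That call was lost when all its probe sets were averaged, which gave 0.28. PDK1 had a change of -0.30 and 0.23 in the combinations and was not called, while its 2 other probe sets changed by -0.99 and -0.66 at 1 nM and by -1.51 and -1.16 at 10 nM. The averaged MS275 effect on PDK1 passed without the 2 narrow arrays (-0.62, adjusted p = 0.0149), with probe sets averaged (-0.60, adjusted p = 0.0196) and with array weights (-0.74, adjusted p = 0.00846).

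HIF1A, the oxygen-regulated subunit of HIF, and the hydroxylases EGLN1 and EGLN3 were called in none of the 15 comparisons as fitted. EGLN1 measured 7.63, 8.27 and 8.90 in the control arrays and 7.84, 7.47 and 8.07 with MS275. With rapamycin, EGLN1 measured 8.77, 8.46 and 8.23 at 1 nM and 8.31, 8.06 and 7.93 at 10 nM. With both drugs, EGLN1 measured 6.33, 7.41 and 7.995 at 1 nM and 7.26 and 8.13 at 10 nM. EGLN1 overlapped the control in every group, and its lowest value was in replicate 1 of the 1 nM combination, a narrow array. Its change was -1.02 ± 0.39 in the 1 nM combination (adjusted p = 0.25) and -0.57 ± 0.44 in the 10 nM combination (adjusted p = 0.643). The averaged MS275 effect on EGLN1 passed without the 2 narrow arrays (-0.66, adjusted p = 0.0284), with probe sets averaged (-0.53, adjusted p = 0.0474) and with array weights (-0.82, adjusted p = 0.00447). HIF1A changed by -0.36 ± 0.68 and 0.34 ± 0.76 there, and EGLN3 by 0.11 ± 0.24 and 0.10 ± 0.27. Without the 2 narrow arrays the SE of HIF1A was 0.31 in both.

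In 5 members, HIF1A, PGK1, PDK1, VEGFA and BNIP3, the narrow arrays lay far below the other replicates. Single values from this group are given after they were seen. In these 5, replicate 1 lay over 1 log2 unit below the mean of replicates 2 and 3 both in control and at 1 nM with MS275, as in 1604 of all genes (8.11%). Other members were shifted in both groups too, such as EGLN1 (-0.95 in control and -1.38 at 1 nM) and, upward, PFKL (0.91 and 0.84). Calls lost without the narrow arrays are given with their genes. HIF1A measured 6.06, 8.77 and 9.03 in control, 6.12, 8.14 and 8.54 in the 1 nM combination, and 7.83 and 8.76 in the 10 nM combination. PGK1, phosphoglycerate kinase, measured 9.97, 12.24 and 12.26 in control and 8.64, 11.40 and 11.77 in the 1 nM combination. Without these 2 arrays HIF1A changed by -0.56 and -0.61 in the combinations and PGK1 by -0.66 and -0.76, none with an adjusted p under 0.138. PGK1 was also read differently by its probe sets. The one used here changed by -0.01 in the 10 nM combination, and the other 5 by -0.46 to -2.09.

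**Figure D3:**
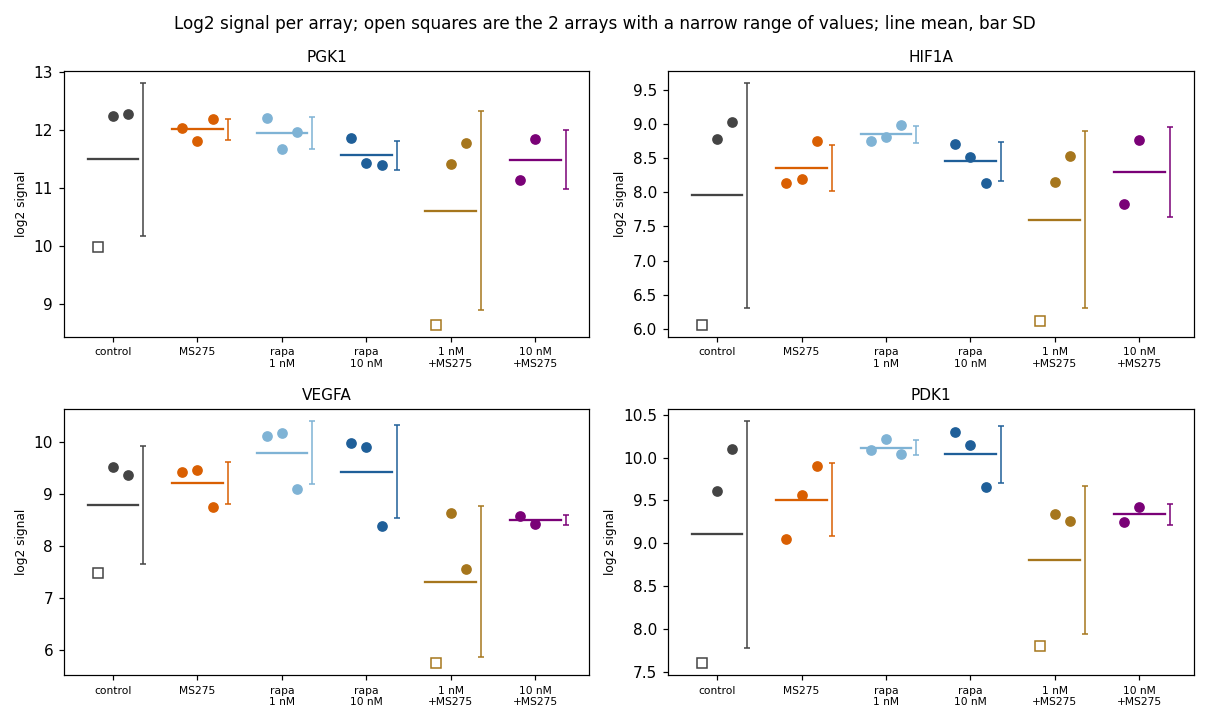
Log2 signal of PGK1, HIF1A, VEGFA and PDK1 by treatment group, chosen after their values were seen. Open squares are the 2 arrays with a narrow range of values, filled points the other arrays, lines group means and bars SD (n = 3, or 2 for 10 nM with MS275). The open squares lie below the other arrays of their groups in all 4 genes, as for HIF1A at 6.06 and 6.12.

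Of the 10 measured genes given the role of HIF target, 1 fell in each combination, where 1.58% and 2.24% of all genes fell. None was called with a single drug against control. Genes of glucose uptake and glycolysis, which HIF also raises, are counted under their own roles. The median change of the 10 HIF targets was 0.36 with MS275, -0.30 and -0.52 with 1 and 10 nM rapamycin, and -0.24 and -0.28 in the combinations. The HIF target that fell was BHLHE40. BHLHE40 measured 7.35, 6.86 and 9.74 in the control arrays and 8.52, 7.05 and 7.70 with MS275. With rapamycin, BHLHE40 measured 7.99, 7.001 and 6.58 at 1 nM and 5.99, 6.20 and 6.03 at 10 nM. With both drugs, BHLHE40 measured 4.92, 5.18 and 5.70 at 1 nM and 4.63 and 5.67 at 10 nM. The combination arrays were the lowest of all, the 10 nM rapamycin arrays followed, and control replicate 3 stood far above the other controls. BHLHE40 fell by 2.72 ± 0.61 (6.59-fold, adjusted p = 0.0264) and 2.83 ± 0.69 (7.13-fold, adjusted p = 0.0358), the largest falls among the 36 genes. Its second probe set, with a mean of 4.38, changed by -1.48 and -1.38 there. With MS275 alone that probe set changed by -1.04, against -0.23 for the one used. Without control replicate 3 the changes of the one used were -1.84 and -1.95 and neither passed. The call at 1 nM was also lost without any of the 3 arrays of the combination (adjusted p of 0.0506 to 0.0862 over these 4 arrays) and without the 2 narrow arrays. At 10 nM it was lost in 7 of 17 fits that left out 1 array (adjusted p of 0.05 to 0.276), those without control replicate 3, MS275 replicate 3, 1 nM rapamycin replicate 2, 10 nM rapamycin replicate 1 or 2, or either array of the combination.

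P4HA1, a subunit of the collagen prolyl hydroxylase, was highest with MS275 alone. P4HA1 measured 9.74, 10.16 and 11.03 in the control arrays and 11.81, 11.83 and 11.80 with MS275. With rapamycin, P4HA1 measured 10.63, 9.43 and 9.90 at 1 nM and 10.27, 9.27 and 9.67 at 10 nM. With both drugs, P4HA1 measured 9.45, 9.16 and 9.90 at 1 nM and 8.74 and 9.56 at 10 nM. The 3 MS275 arrays lay above all others, whereas those of the 1 nM combination overlapped the control and those of the 10 nM combination lay below it. The change with MS275 was 1.501 ± 0.374 (2.83-fold) with an adjusted p of 0.0661, and 0.0412 with the replicate number as a block. P4HA1 was the 1 member called when rapamycin was added to MS275, with a change of -2.31 ± 0.37 at 1 nM (4.96-fold lower, adjusted p = 0.0354) and -2.66 ± 0.42 at 10 nM (6.32-fold lower, adjusted p = 0.0156), where 0.101% and 0.248% of all genes fell. The first was lost without any array of either group or replicate 3 of either rapamycin dose (adjusted p of 0.0566 to 0.179), without the 2 narrow arrays, with array weights and with its probe sets averaged. Dropping MS275 replicate 1 or either of the 10 nM combination arrays ended the second (0.0675 to 0.294).

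The interaction, the effect of the combination less the sum of both single effects, was -1.98 for P4HA1 at 1 nM (95% interval -3.12 to -0.85) and -2.08 at 10 nM (-3.28 to -0.89). Neither passed after adjustment over all genes by limma (adjusted p of 0.682 and 1), and 0% of all genes passed at either dose. Of the members, 6 at 1 nM and 2 at 10 nM had an unadjusted p under 0.05 for the interaction, where 4.63% and 0.981% of all genes did. For VEGFA, the angiogenic growth factor, it was -2.90 at 1 nM (95% interval -4.95 to -0.85) and -1.46 without the 2 narrow arrays. The 3 other VEGFA probe sets gave differences of -0.002 to 0.42 at 1 nM, so the value rests on 1 probe set. For SLC2A1 the single changes summed to -2.05 at 1 nM and the combination change was -1.97, with a 95% interval of the interaction of -0.73 to 0.88. GPI had a sum of -1.67 and a combination change of -1.72 (-0.81 to 0.71), and PGAM1 -1.24 and -1.29 (-0.61 to 0.50). LDHA had a sum of -0.86 and a combination change of -1.26 (-1.03 to 0.22). The intervals of SLC2A1, GPI, PGAM1 and LDHA include 0 and reach changes of 0.50 or more in size. Of the other members that fell, BHLHE40 and PFKP lay further from the sum at 1 nM. For BHLHE40 the sum was -1.02 and the combination change -2.72, but its second probe set gave a difference of the opposite sign, 0.725. For PFKP the sum was -1.69 and the combination change -1.06.

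NDRG1, a stress-responsive HIF target, was higher where MS275 was present. NDRG1 measured 7.46, 7.23 and 7.72 in the control arrays and 8.14, 7.60 and 8.10 with MS275. With rapamycin, NDRG1 measured 6.53, 6.52 and 6.81 at 1 nM and 6.38, 6.94 and 7.44 at 10 nM. With both drugs, NDRG1 measured 8.34, 7.60 and 8.20 at 1 nM and 7.87 and 8.07 at 10 nM. All arrays of the 1 nM combination lay above those of 1 nM rapamycin, and those of the 10 nM combination above those of 10 nM rapamycin and of control. Against control NDRG1 changed by 0.48 with MS275, -0.85 and -0.55 with 1 and 10 nM rapamycin, and 0.57 and 0.50 in the combinations. None of these changes was called. NDRG1 rose by 1.42 ± 0.27 (2.68-fold, adjusted p = 0.0162) when MS275 was added to 1 nM rapamycin, the 1 member to rise there where 0.936% of all genes rose. That call was lost without any of the 3 arrays of 1 nM rapamycin or without replicate 1 or 3 of the combination (adjusted p of 0.0546 to 0.0828), and without the 2 narrow arrays. In the same comparison SLC2A1 and HK2 fell, by 1.24 and 1.28 (adjusted p of 0.0355 and 0.00552), against 0.293% of all genes. The SLC2A1 call was lost without any of the 6 arrays compared, MS275 replicate 2 or 10 nM rapamycin replicate 1 (adjusted p of 0.0512 to 0.187), without the 2 narrow arrays and with its probe sets averaged. Averaged probe sets also ended the HK2 call. With the replicate number as a block 5 members passed, LDHA and VEGFA falling in addition, where 2.83% of all genes passed. Adding MS275 to 10 nM rapamycin called no member, where 0.435% of all genes passed, and 10 of 36 had an unadjusted p under 0.05, as did 7.34% of all genes.

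The remaining HIF targets passed in no comparison as fitted. VEGFA changed by -1.47 and -0.28 in the combinations and BNIP3, a mitophagy receptor, by -1.45 and -1.23. P4HA2 ranged from 5.34 to 8.30 among the MS275 arrays alone and changed by 1.65 ± 0.79 there. ADM, ANKRD37, KDM3A and BNIP3L had changes of at most 0.40 in size in the combinations, but a second BNIP3L probe set, with a mean of 9.05, changed by 0.11 and 1.25 against -0.37 and -0.40 for the one used. VEGFA depended on the probe set. Its 3 other probe sets changed by -1.10 to -1.36 at 1 nM and -1.30 to -1.72 at 10 nM, and the mean of all 4 passed in both combinations (-1.29, adjusted p = 0.0046, and -1.18, adjusted p = 0.0141) and for averaged MS275 (-0.80, adjusted p = 0.0013). BNIP3 passed in both combinations with array weights (-2.12 and -2.30, adjusted p of 0.0155 and 0.0139). For the members that fell, other probe sets with a mean of at least 5 were also negative, 5 of 5 at 1 nM and 10 of 10 at 10 nM.

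Rapamycin alone called no member at either dose. Of all genes, 0.101% passed at 1 nM and 0.435% at 10 nM. An unadjusted p under 0.05 was found for 8 of 36 members at 1 nM, where 8.05% of all genes had one, and for 13 at 10 nM, where 6.96% did. The median change was -0.39 at 1 nM and -0.54 at 10 nM, against -0.12 and -0.07 over all genes. When limma weighted arrays by their estimated quality, 9 members fell at 1 nM and 14 at 10 nM, among them GPI (-1.01 and -1.41) and PGAM1 (-0.82 and -1.12), while the share of all genes called rose to 14.2% and 9.87%. With the replicate number as a block PFKP fell at 1 nM (-0.95, adjusted p = 0.045), where 0.566% of all genes were called. Without control replicate 2, which was the lowest control array for 19 of the 36 members and for 12 of the 17 enzymes, 2 members fell at 1 nM and 3 at 10 nM. The matching shares of all genes are not given here, so these counts are not a result about the members. Between the doses 0 members passed, with or without MS275, 0 had an unadjusted p under 0.05, and 0% of all genes passed in limma.

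MS275 alone called SLC2A1 only, as given above, while 9 of 36 members had an unadjusted p under 0.05, as did 10.8% of all genes. The median change was -0.21 over the members and -0.05 over all genes. With the replicate number as a block 5 members passed, where 3.35% of all genes did. HK2, ALDOA (-0.90, adjusted p = 0.0279), PFKP and SLC2A1 were lower and P4HA1 was higher. With array weights 7 passed, all lower, where 7.61% of all genes were called.

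Averages over the other drug use all 17 arrays and so have narrower intervals. Averaged over the 3 levels of rapamycin, MS275 lowered 8 members where 3.59% of all genes fell, and raised 2 where 4.54% rose. Those lower were SLC2A1 (-1.21 ± 0.16, adjusted p = 0.000275), HK2 (-0.99 ± 0.12, adjusted p = 0.000127), GPI, ALDOA, ALDOC, TPI1, PGAM1 and LDHA. Those higher were PDK3 and NDRG1 (0.98 ± 0.16, adjusted p = 0.00146). ALDOC lost its call without replicate 1 of 1 nM rapamycin or of the 10 nM combination (-0.86 and -0.82), and TPI1 in 7 of 17 fits that left out 1 array (-0.72 to -0.64; control 3, MS275 2, 1 nM rapamycin 1 or 3, 10 nM rapamycin 3, replicate 2 of the 1 nM or 1 of the 10 nM combination). Both lost it without the 2 narrow arrays.

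Averaged over both doses and both MS275 states, rapamycin lowered 9 members, where 1.94% of all genes fell, and raised none. These were GPI (-0.90 ± 0.16, adjusted p = 0.00606), PGAM1 (-0.77 ± 0.11, adjusted p = 0.0018), LDHA (-0.71 ± 0.13, adjusted p = 0.00829), P4HA1 (-1.47 ± 0.23, adjusted p = 0.00308), PFKP, SLC2A1, ALDOA, PFKFB4 and BHLHE40. ALDOA, PFKFB4 and SLC2A1 lost their calls without the 2 narrow arrays and in 13, 11 and 11 of 17 fits that left out 1 array, control replicates 1 and 3 among them for each. With probe sets averaged, PFKP and PFKFB4 lost theirs. BHLHE40 lost its call without MS275 replicate 1 (-1.76, adjusted p = 0.0547). SLC2A1, GPI, ALDOA, PGAM1 and LDHA were lowered in both averages. HK2 was lowered by MS275 (-0.99) while its average rapamycin change was -0.33 (adjusted p = 0.274). P4HA1 was lowered by rapamycin on average, while its average MS275 change was 0.15 (adjusted p = 0.884). Both averages of P4HA1 pool unlike changes. Rapamycin changed P4HA1 by -0.327 and -0.575 alone, and by -2.31 and -2.66 on top of MS275. Its mean was 11.81 with MS275 against 10.31 in control. With rapamycin it was lower with MS275 than without, 9.50 against 9.98 at 1 nM and 9.15 against 9.74 at 10 nM.

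**Figure D4:**
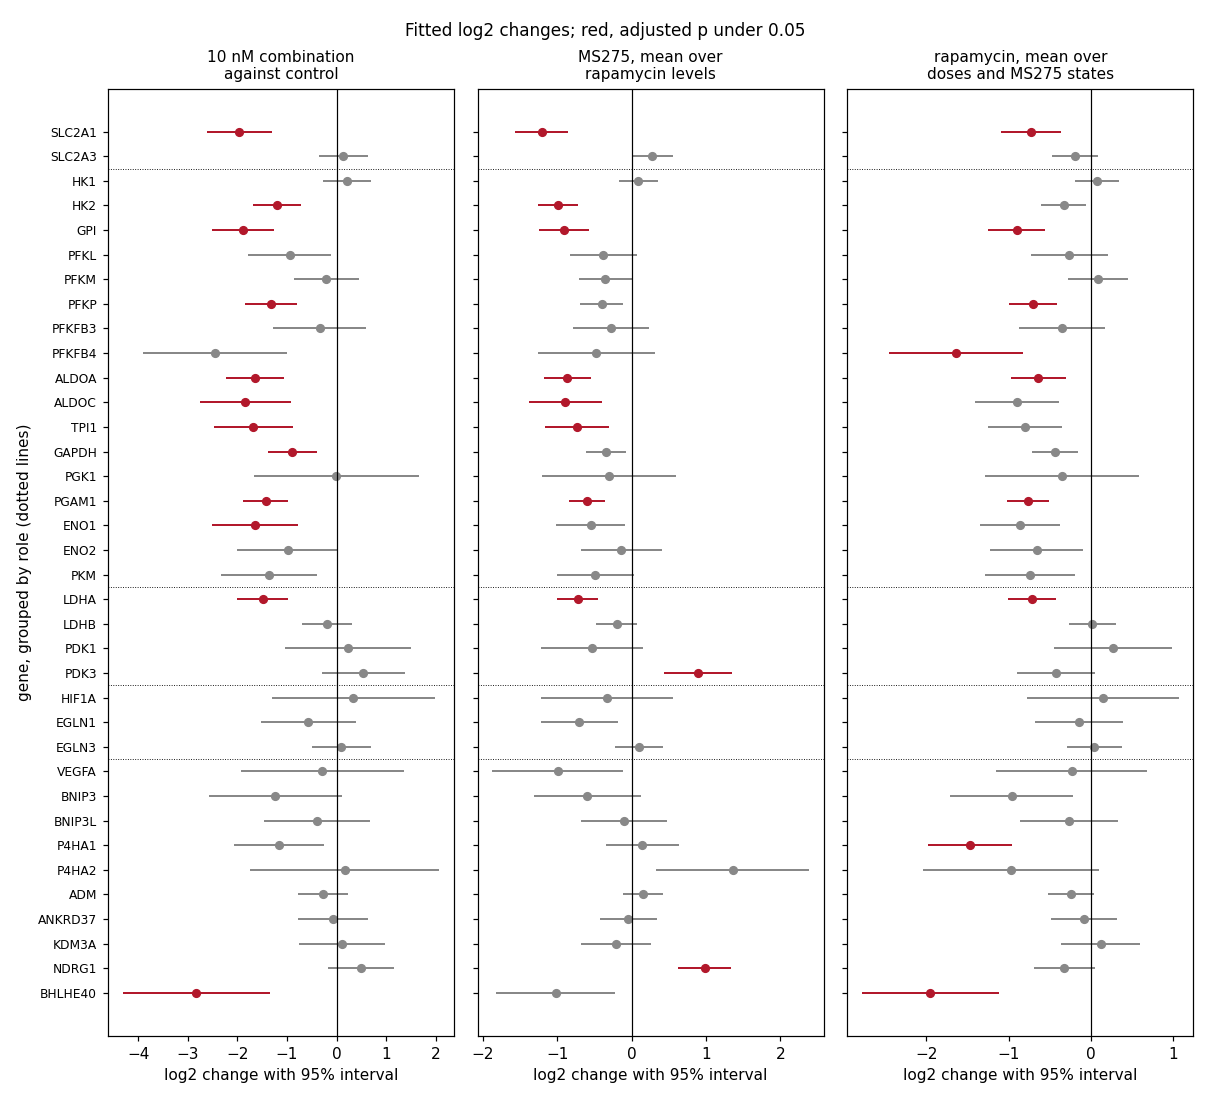
Fitted log2 change of the 36 genes (points) with 95% intervals (bars) in the 10 nM combination against control and for the averaged effects of MS275 and of rapamycin. Red marks an adjusted p under 0.05, and dotted lines part the roles. SLC2A1, GPI, ALDOA, PGAM1 and LDHA are red and negative in all 3 panels, and PDK3 and NDRG1 are red and positive for MS275.

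Genes around these pathways that are not in the set were counted in the same fit. A wider glycolysis list of 59 genes, 53 of them measured, holds other isoforms and neighbouring steps such as glycogen and pyruvate metabolism. In it 1 gene fell with both drugs at 1 nM (1.89% of the list, against 1.58% of all genes), and 4 at 10 nM (7.55%, against 2.24%). None rose, and the median change was -0.13 and -0.24, against 0.02 and -0.08 over all genes. PCK2, which makes phosphoenolpyruvate in mitochondria, fell in both (-1.76 and -1.86, adjusted p of 0.0197 and 0.0265). ADPGK, a kinase that phosphorylates glucose with ADP, fell by 1.01 at 10 nM (adjusted p = 0.0208), PC, pyruvate carboxylase, by 1.27 (adjusted p = 0.0305) and the glycogen synthase GYS1 by 1.21 (adjusted p = 0.0435). Averaged over rapamycin levels, MS275 raised 2 of the 53 genes, where 4.54% of all genes rose, and lowered 4, where 3.59% fell. PDP1, the phosphatase that opposes the PDK kinases, rose by 1.26 ± 0.28 (adjusted p = 0.0119) and the sugar transporter SLC2A12 by 0.50 (adjusted p = 0.022). GYS1 changed by -0.82 (adjusted p = 0.00548) and ADPGK by -0.54 (adjusted p = 0.00956), and both calls held with any 1 array left out. Quantile normalization ended the averaged calls of ADPGK and SLC2A12. None of the 53 passed with a single drug against control. In the 10 nM combination against control, each of the 4 falls was lost without either array of that group. The PCK2 call at 1 nM was lost without any array of the combination or control replicate 1 or 3, and those of PDP1 and SLC2A12 without replicate 2 of the 10 nM combination (adjusted p of 0.0533 and 0.0808).

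A wider list of 59 hypoxia-linked genes, 56 of them measured, had 6 falls with both drugs at 1 nM (10.7% of the list, against 1.58% of all genes), and 7 at 10 nM (12.5%, against 2.24%), and no rise. Its median change was -0.12 and -0.20. DDIT4, an mTOR inhibitor induced by hypoxia, changed by -3.96 ± 0.69 and -4.01 ± 0.77 (15.5-fold and 16.1-fold lower, adjusted p of 0.00559 and 0.0104). PLOD1, a collagen lysyl hydroxylase, changed by -1.89 and -2.35, and TFRC, the transferrin receptor, by -1.64 and -2.12 (adjusted p of at most 0.00209). SLC7A11, the cystine transporter, fell with rapamycin alone, by 2.47 at 1 nM and 2.49 at 10 nM (adjusted p of 0.0284 and 0.013), and in both combinations. With MS275 alone TMEM45A rose by 1.88 ± 0.20 (3.68-fold, adjusted p = 0.000224) and GPR146 fell by 0.89 (adjusted p = 0.0267). Adding rapamycin to MS275 changed TMEM45A by -1.58 at 1 nM and -1.34 at 10 nM (adjusted p of 0.00609 and 0.0204). The PLOD1 and TFRC falls against control and the TMEM45A rise held with any 1 array left out. The TMEM45A call for 1 nM rapamycin added to MS275 was lost without replicate 2 of the combination (adjusted p = 0.0572). That for 10 nM was lost without MS275 replicate 1 or 2 or either combination array, and with quantile normalization. The SLC7A11 call was lost with 1 nM rapamycin without any array of that group, control replicate 1 or 3 or the 2 narrow arrays, and with 10 nM rapamycin without control replicate 3 or replicate 1 or 3 of that group. At 10 nM with MS275 it was lost without control replicate 1 or 3, either array of the combination or the 2 narrow arrays. The GPR146 call was lost without any MS275 array, control replicate 1 or 3 or the 2 narrow arrays (adjusted p of up to 0.107). The DDIT4 fall was lost at 1 nM without the 2 narrow arrays and at 10 nM without either array of the combination (adjusted p of up to 0.102).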

How the data were processed

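The authors deposited RMA values on a log2 scale, 1 per probe set, and the submitters' processing notes name affy. Its version was not given in the sources used here. They were used without further normalization. Of 54613 probe sets, 41091 have 1 gene symbol in the platform annotation, 1801 several and 11721 none. A RefSeq gene table (GRCh38.p14), matching 41037 of the single symbols, served for names. Each gene's singly annotated probe set with the highest mean gave 19775 genes. Members had 81 such probe sets.

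Group means were fitted on all 17 arrays with limma 3.58.1 (lmFit and eBayes) in R 4.3.3, with Benjamini-Hochberg adjustment over all genes and a threshold of 0.05, for 15 comparisons; the fit was tested on simulated data. Intervals of 95% reached, in the median, 0.539 on each side for groups of 3 and 0.602 with the group of 2. Signal over background was not available here, and the number of arrays limits precision.

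The members, lists and named genes were chosen with earlier results of these data known. Single arrays are given for 14 members: those called in the most comparisons, with at least 1 of each role. From each wider list up to 6 genes are named by the same order. Promoters came from a RefSeq table (GRCh38.p14).

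Replicate numbers recur across groups, with no label saying what they share. Arrays of the same number had deviations from the group mean that correlated over 0.1, from 0.286 to 0.853, in 7 of 10 pairs of groups of 3, among them control with MS275, 1 nM rapamycin and the 1 nM combination. These 7 pairs of groups were treated as paired by that rule alone. Arrays of unlike number were not compared, so whether the replicate number pairs the groups was not tested. For control with the 1 nM combination, the correlation at replicate 1 (0.816) is that between the narrow arrays. A fit blocked on the replicate number is given beside results between groups treated as paired where it changes a call, and otherwise in the closing section. That fit was made once on all arrays. Its block terms and its spread therefore also use 10 nM rapamycin and the 10 nM combination, neither of which was treated as paired with control. Calls made only with the block, including those between groups treated as paired, rest on this untested pairing. A blocked fit on the paired groups alone was not run. Other alternatives were leaving out arrays, array weights, averaged probe sets, a filter on low signals, quantile normalization and fits on the compared groups alone.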

Additional observations from a re-analysis of the deposited data

How the results depend on the processing

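All 47 called changes of the members kept their direction under every alternative run, 22 kept their call with any 1 array left out, and 26 under every other alternative apart from fits on the compared groups alone. Counts below are members called. In those fits 0 were called in each of the 13 comparisons run, which lost 1 call for MS275 alone, 10 and 12 for the combinations, 1 each when rapamycin was added to MS275 and 3 when MS275 was added to 1 nM rapamycin; such a fit has 5 or 6 arrays, or 11 or 12 for the interactions.

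A replicate block in the fit lost none of the 47 calls. It called 5 members for MS275 alone (3.35% of all genes were called) and 1 and 4 for 1 and 10 nM rapamycin (0.566% and 1.15%). For MS275 added to 1 and 10 nM rapamycin it called 5 and 2 (2.83% and 1.71%). Control was not taken as paired with 10 nM rapamycin (lowest correlation -0.162), nor were MS275 or the 1 nM combination with it. The 10 nM combination has only 2 numbers. Its correlations with the other groups ran from 0.0689 to 0.386 at replicate 1. At replicate 2 they ran from -0.743 with 1 nM rapamycin to 0.0138 with control. Blocked results for these groups therefore stand here alone: 14 members fell in the 10 nM combination, PFKFB4 and PKM in addition, where 6.79% of all genes were called. With the block, averaged MS275 also raised P4HA2 (1.20, adjusted p = 0.0344) and lowered PFKP (-0.40, adjusted p = 0.0332), and averaged rapamycin also lowered ALDOC, ENO1 and TPI1 (-0.85, -0.82 and -0.76, adjusted p of 0.0111, 0.0173 and 0.0124). Of all genes, 12.5% were called there for averaged MS275 and 4.13% for averaged rapamycin.

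Array weights called 7 members for MS275 (7.61% of all genes were called) and 9 and 14 for 1 and 10 nM rapamycin (14.2% and 9.87%). They called 0 for 1 nM rapamycin added to MS275 (0.091%), and 11 and 1 for MS275 added to 1 and 10 nM rapamycin (4.66% and 1.64%). For the averaged MS275 and rapamycin effects they called 23 and 14 (16% and 7.9%). Quantile normalization over genes called 5 for MS275 and 1 for 10 nM rapamycin. Without the 2 narrow arrays 2 were called for MS275, 0 for 1 nM rapamycin added to MS275 and 1 for MS275 added to 1 nM rapamycin. Averaged probe sets called 0 for 1 nM rapamycin added to MS275. The cause of these shifts was not tested. In this section, shares of all genes are given only for the block and the array weights.

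With each array left out in turn, the count ran from 0 to 2 for MS275, 0 to 2 and 0 to 3 for 1 and 10 nM rapamycin, 6 to 11 and 3 to 14 for the 1 and 10 nM combinations, 0 to 2 for each combination against MS275, 1 to 5 for MS275 added to 1 nM rapamycin, 8 to 14 for averaged MS275 and 5 to 11 for averaged rapamycin. It stayed at 0 for MS275 added to 10 nM rapamycin, both dose comparisons and both interactions.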
